A study of Homo sapiens with 24 samples.

Results

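The miR-106b~25 and miR-106a~miR-363 clusters are the paralogs of the miR-17~92 cluster, and 10 of their mature products were followed here across 8 groups of SBC-3 cells. The members were chosen by name and position, as both arms of miR-106b, miR-93 and miR-25 on chromosome 7 and miR-106a-5p, miR-18b-5p, miR-20b-5p and miR-363-3p on chromosome X. They are 10 of the 2652 mature miRNAs in the deposited tables. SBC-3 is a human small cell lung cancer line. Small RNA was sequenced 72 h after reverse transfection with an oligonucleotide at 10 nM, in 24 libraries, 3 per group. The siRNA groups were siSFPQ-2 and siSFPQ-3 (against SFPQ), siNONO-3 and siNONO-4 (against NONO) and the control siCtrl. The antisense oligonucleotide (ASO) groups were ASO-NEAT1-1047 and ASO-NEAT1-1473 (against NEAT1) and the control ASO-Ctrl. All groups are the same cell line, and every group, the controls included, received an oligonucleotide. The labels do not say whether the 3 libraries of a group came from separate cultures, so the p-values measure the spread between these libraries, which may be technical. The tables hold mature miRNAs and spike-ins, so the RNA of SFPQ, NONO and NEAT1 themselves was not analysed here.

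A miRNA is cut from a hairpin in a longer primary transcript, first in the nucleus by the Microprocessor (DROSHA with DGCR8) and then in the cytoplasm by DICER1. One arm of the duplex is usually kept in an Argonaute protein as the guide, and the other, the passenger arm, is mostly degraded. Bases 2 to 8 of the guide, the seed, pair with target mRNAs, so miRNAs that share a seed share many targets. The miR-17 family of this region is known for repressing the cell cycle inhibitor CDKN1A and the pro-apoptotic BCL2L11, and MYC and E2F factors activate its transcription. SFPQ and NONO are RNA-binding proteins that pair with each other and gather, on the long noncoding RNA NEAT1, in nuclear bodies called paraspeckles. The study asked how their loss changes miRNAs.

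The 6 mature products of miR-106b~25 lie within 493 bases on the minus strand of hg38, at chr7:100093571-100094063. They are intronic in 8 GENCODE transcripts of MCM7, a subunit of the replicative helicase, and exonic in 0. The 4 products of miR-106a~miR-363 lie within 885 bases on the minus strand at chrX:134169382-134170266, exonic in 1 transcript of the noncoding gene AC002407.1. All 10 were found in the RefSeq GRCh38.p14 miRNA table, and all are 21 to 23 bases long. Their sequences are shown by shared seed, with the seed in capitals and the miR-17~92 paralog below, because the letters decide which counts can be told apart. The first set has the miR-17 seed.
miR-106b-5p: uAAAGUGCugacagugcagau
miR-93-5p: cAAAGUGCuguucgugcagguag
miR-106a-5p: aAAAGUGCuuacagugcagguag
miR-20b-5p: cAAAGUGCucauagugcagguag
miR-17-5p: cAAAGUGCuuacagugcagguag
miR-20a-5p: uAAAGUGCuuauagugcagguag
The next pair has the miR-18 seed.
miR-18b-5p: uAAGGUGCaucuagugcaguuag
miR-18a-5p: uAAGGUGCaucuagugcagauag
The third set has the miR-25 and miR-92 seed.
miR-25-3p: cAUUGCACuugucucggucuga
miR-363-3p: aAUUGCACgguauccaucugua
miR-92a-3p: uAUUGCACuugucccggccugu
The remaining members are the less abundant arms of the chromosome 7 hairpins, and each has a seed of its own.
miR-106b-3p: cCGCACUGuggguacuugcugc
miR-93-3p: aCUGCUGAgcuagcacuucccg
miR-25-5p: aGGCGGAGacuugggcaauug
The miR-25 hairpin (chr7:100093560-100093643, minus strand) is printed whole, with its 5p and then its 3p product in capitals, because the ratio of these arms is tested below.
MIR25: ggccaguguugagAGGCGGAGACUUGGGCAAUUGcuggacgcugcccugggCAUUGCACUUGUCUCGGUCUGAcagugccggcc

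Of the 4 chromosome X products, 2 could not be separated from a miR-17~92 product. Each member's count was set beside its paralog's in every library, and base differences are given with the member's base first and positions counted from 1 at the 5′ end. The count of miR-18b-5p was 99.5% to 99.8% of that of miR-18a-5p in the 24 libraries, and the sequences differ by U20A alone. The count of miR-20b-5p was 90.8% to 101.3% of that of miR-17-5p, with a median of 93.5%, and these differ by C10U and U12C. Both stayed within 10% of the paralog in 24 of 24 libraries, so their values below cannot be told apart from those of miR-18a-5p and miR-17-5p.

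None of the other members compared with a paralog stayed within 10% of it in all 24 libraries. miR-106a-5p differs from miR-17-5p at the first base alone (A1C), and its count was 1.73% to 3.30% of that of miR-17-5p. From miR-20a-5p it differs by A1U and C12U, and its count was 0.378% to 0.629% of that of miR-20a-5p. Even a small share of the reads of either placed at the X locus could add to miR-106a-5p, so its count is not shown to be its own. miR-93-5p (G10U, U11A, U12C and C13A) ranged from 51.6% to 227% of miR-17-5p. miR-106b-5p (G10U, C12U and A20G against miR-20a-5p over 21 compared bases) was 6.10% to 9.04% of miR-20a-5p. The count of miR-25-3p was 22.9% to 51.8% of that of miR-92a-3p, from which it differs by C1U, U14C, U18C and A22U. miR-363-3p differs from miR-92a-3p at 12 positions and reached at most 0.0091% of it.

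**Figure D1:**
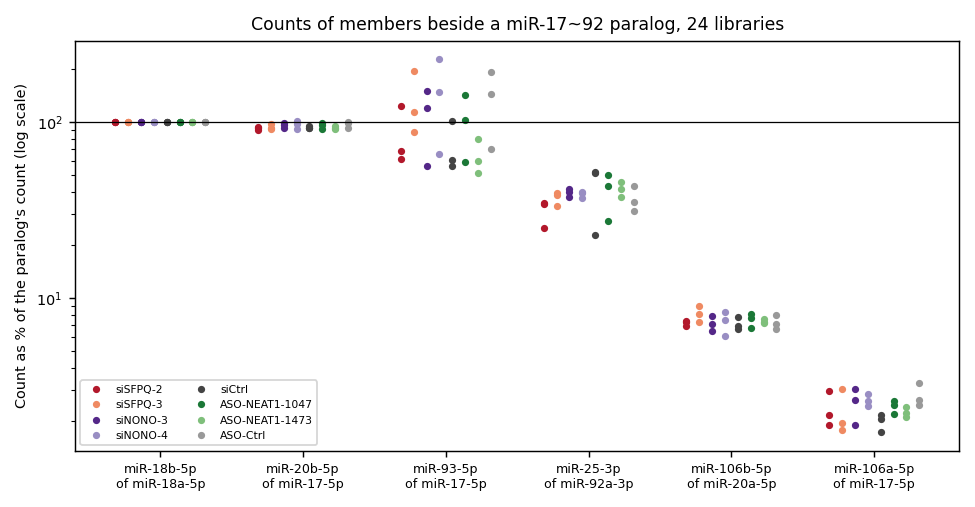
Each point is 1 of 24 libraries and gives a member's count as a percentage of the count of its miR-17~92 paralog (log scale), coloured by group. miR-18b-5p and miR-20b-5p lie on or near the line at 100%, while miR-106a-5p lies between 1.73% and 3.30% of miR-17-5p.

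The libraries held 2038382 to 4279644 miRNA counts, and 45784 to 136178 spike-in counts. Levels are in CPM, the count scaled to a common library size. TMM factors set that size so that most miRNAs stand at a common level in all libraries. As the products have nearly the same length, no length correction was made, but ligation and amplification differ between sequences, so levels of different miRNAs are only roughly comparable. The siCtrl library of replicate 1 stood apart for several members. It had 3899 CPM of miR-18b-5p, against 8359 and 8295 in the other siCtrl libraries, and 227 CPM of miR-106b-3p, against 128 and 125.5. Fold changes against siCtrl in the pooled comparisons are therefore also given without it. Of the fixed marker lists, the neuroendocrine and neural list (3 of 4 matched) was led by miR-9-5p and miR-7-5p, while miR-375-3p stayed at or below 8.55 CPM. This list summed to 58212 to 79163 CPM in siSFPQ libraries and 98804 to 112786 CPM in siCtrl libraries. The muscle, vessel and stroma list (5 of 5 matched) summed to 772 to 957 CPM in siSFPQ and 1275 to 1343 CPM in siCtrl libraries. The blood list (3 of 5 matched) summed to at most 169 CPM, miR-223-3p stayed under 1 CPM, and the liver miRNA miR-122-5p was at 0 in all libraries. Both of the first lists were lower after SFPQ knockdown, and their part in the results below was not tested.

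Across the 8 groups, the highest member levels were those of miR-93-5p, miR-25-3p and the unseparated miR-18b-5p and miR-20b-5p. Group means of miR-93-5p ran from 4663 CPM in siSFPQ-2 to 8271 CPM in ASO-Ctrl. Those of miR-25-3p ran from 5053 CPM in siSFPQ-3 to 7948 CPM in ASO-Ctrl. Those of miR-106b-5p ran from 1581 CPM in siSFPQ-3 to 2714 CPM in ASO-NEAT1-1473. The means of miR-106a-5p were between 89.1 CPM in siSFPQ-3 and 204 CPM in ASO-NEAT1-1473, and those of the passenger products miR-93-3p and miR-25-5p stayed below 61 CPM in every group. A siSFPQ group was last in the order of means for miR-106b-5p, miR-106b-3p, miR-93-5p, miR-25-3p, miR-106a-5p, miR-18b-5p and miR-20b-5p, and a siSFPQ group was first for miR-25-5p. Neighbours in these orders overlapped, with few exceptions. For miR-18b-5p, the siSFPQ-2 libraries lay below the siNONO-4 libraries and the siSFPQ-3 libraries below the siSFPQ-2 libraries. For miR-106a-5p, the siSFPQ-3 libraries lay below the siSFPQ-2 libraries. For miR-93-3p, the siSFPQ-3 libraries lay below the siNONO-3 libraries. How many of all tested miRNAs were separated between these pairs of groups was not counted, so these separations are a description only.

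miR-363-3p (MIMAT0000707), which shares the miR-25 seed, was barely detected. It had 11 counts over all 24 libraries, in 6 of them, and a mean count far below the filter, so it was not tested. The groups siSFPQ-2, siNONO-3, siNONO-4 and ASO-NEAT1-1473 had no count at all. A count of 0 over the 3 libraries of a group allows up to 0.379 CPM in siSFPQ-2, 0.331 CPM in siNONO-3, 0.287 CPM in siNONO-4 and 0.362 CPM in ASO-NEAT1-1473, for counting error only. The siCtrl libraries had 0, 2 and 2 counts, and a difference of this size cannot be shown at this depth.

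**Figure D2:**
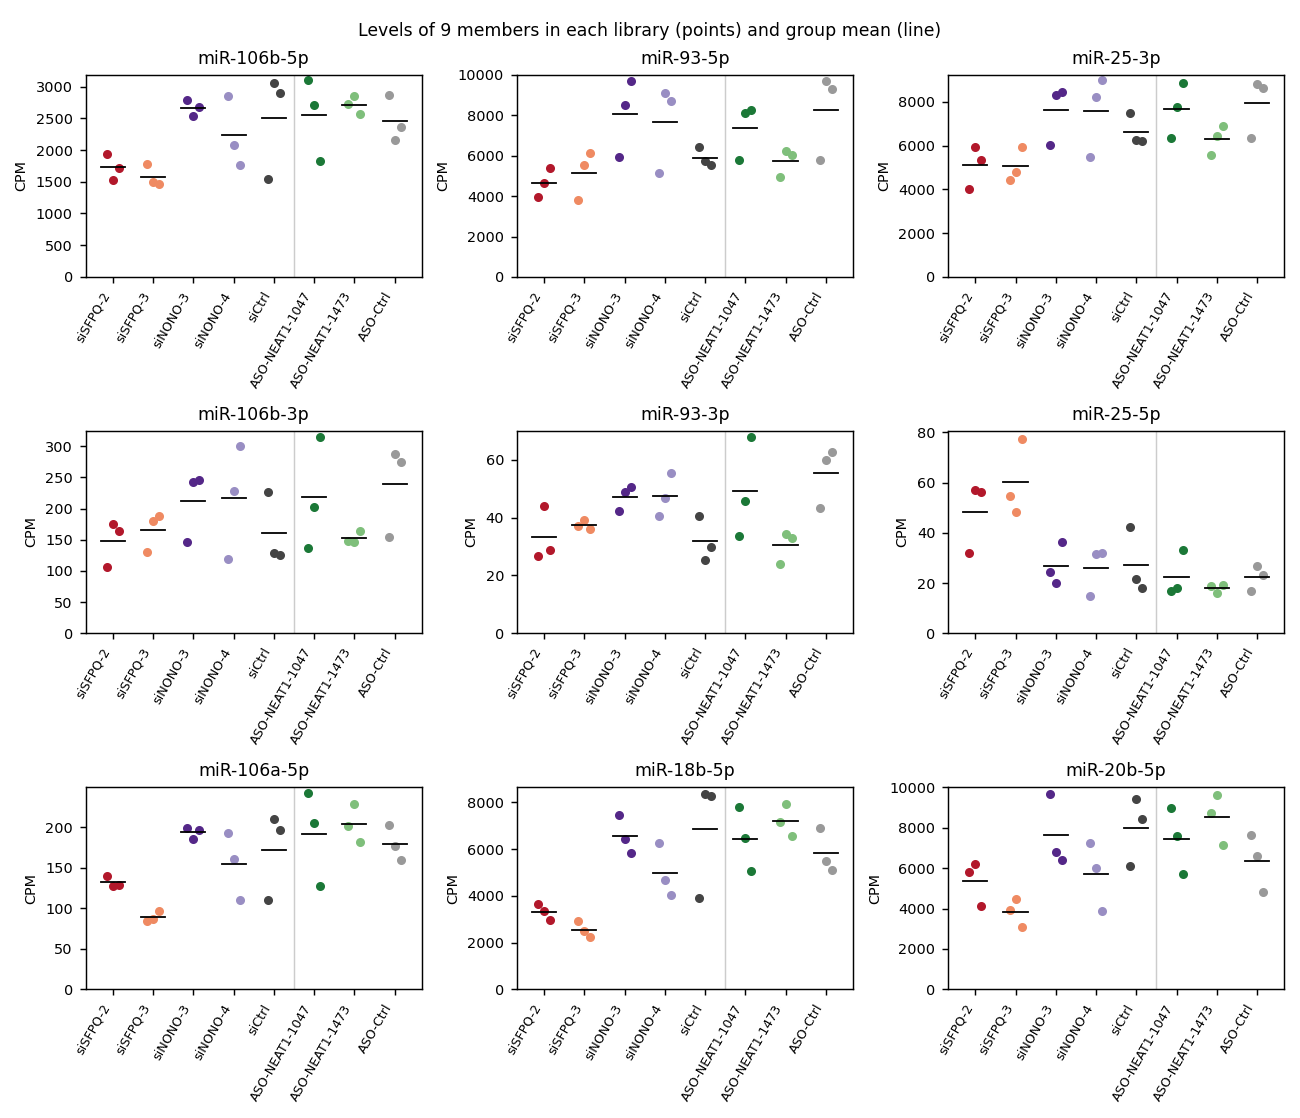
Levels (CPM, linear axes from 0) of the 9 tested members in each library (points), with group means as lines, in the siRNA groups to the left and the ASO groups to the right of the grey rule. The siSFPQ libraries are among the lowest for miR-18b-5p and among the highest for miR-25-5p, and the siCtrl points of miR-106b-5p and miR-18b-5p spread widely, with 1 low library.

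SFPQ knockdown was tested with its 6 libraries set against the 3 of siCtrl. With TMM scaling, miR-106b-5p, miR-106a-5p and the counts read as miR-18b-5p and miR-20b-5p were lower, and the passenger product miR-25-5p was higher. Only miR-18b-5p and miR-25-5p kept their call under every scaling tried, as given below. Of the 9 tested members, 4 fell and 1 rose in edgeR's quasi-likelihood test at an adjusted p under 0.05. Over all 626 tested miRNAs 48.2% were called, 25.6% higher and 22.7% lower, so a call as such is common in this comparison. Without siCtrl replicate 1 the members called were again 5, and without siCtrl replicate 2 or replicate 3 they were 2. The median log2 fold change of the members was -0.39, beside 0.02 over all tested miRNAs. In bulk RNA, fewer cells of a type and less RNA per cell cannot be told apart.

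miR-106b-5p (MIMAT0000680), the guide of the first hairpin in the MCM7 intron, had 1942, 1533 and 1711.5 CPM in siSFPQ-2 and 1781.5, 1494.5 and 1466 CPM in siSFPQ-3, against 1545, 3061 and 2901 CPM in siCtrl. The 6 knockdown libraries lay close together, while the siCtrl libraries did not, and 3 of 6 knockdown libraries were below every siCtrl library. It fell by 0.60 ± 0.19 (SE) on the log2 scale, 1.51-fold lower (adjusted p = 0.0143). Without siCtrl replicate 1 the log2 fold change was -0.89 (adjusted p = 0.000921). The call was lost without siCtrl replicate 2 (-0.42, adjusted p = 0.165), siCtrl replicate 3 (-0.50, adjusted p = 0.0922) or siSFPQ-3 replicate 3 (-0.54, adjusted p = 0.0512), and with only these groups in the fit (-0.57, adjusted p = 0.0524).

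The guides of the other hairpins of the same intron did not pass the test. miR-93-5p (MIMAT0000093), which targets much the same mRNAs as miR-106b-5p, had 3945, 4630.1 and 5415 CPM in siSFPQ-2 and 3796, 5546 and 6148 CPM in siSFPQ-3, against 6439.8, 5724 and 5564.5 CPM in siCtrl. Of the 6 knockdown libraries, 5 were below every siCtrl library, and the log2 fold change was -0.27 ± 0.21 (adjusted p = 0.307), and -0.23 without siCtrl replicate 1 (adjusted p = 0.406). miR-25-3p (MIMAT0000081), the guide of the last hairpin, had 4013, 5930.4 and 5365.5 CPM in siSFPQ-2 and 4417, 4803 and 5938 CPM in siSFPQ-3, against 7475, 6251 and 6216 CPM in siCtrl. All 6 knockdown libraries were below every siCtrl library, as was true in one direction or the other of 34% of all tested miRNAs. Its log2 fold change of -0.39 ± 0.18 missed the threshold (adjusted p = 0.0719), while it passed in DESeq2 (-0.40, adjusted p = 0.0471) and without siSFPQ-2 replicate 2 (-0.46, adjusted p = 0.0415). It was at -0.33 without siCtrl replicate 1 (adjusted p = 0.150).

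The passenger product miR-25-5p (MIMAT0004498) was the one member that was higher. It had 32.0, 57.1 and 56.4 CPM in siSFPQ-2 and 54.7, 48.4 and 77.5 CPM in siSFPQ-3, against 42.3, 21.6 and 18.2 CPM in siCtrl. All but 1 of the knockdown libraries were above every siCtrl library, and the highest siCtrl value was again that of replicate 1. The product rose 1.96-fold, with a log2 fold change of 0.97 ± 0.32 (adjusted p = 0.0155). Without siCtrl replicate 1 the log2 fold change was 1.40 (adjusted p = 0.00181). The call was lost without siCtrl replicate 2 (0.82, adjusted p = 0.0656) or replicate 3 (0.73, adjusted p = 0.0903), and with only these groups in the fit (0.95, adjusted p = 0.0504).

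The other passenger products of chromosome 7 did not pass. miR-106b-3p (MIMAT0004672) had 106, 175 and 164 CPM in siSFPQ-2 and 131, 179.5 and 188 CPM in siSFPQ-3, against 227, 128 and 125.5 CPM in siCtrl, with a log2 fold change of -0.03 ± 0.30 (adjusted p = 0.953). miR-93-3p (MIMAT0004509) had 26.9, 43.9 and 28.9 CPM in siSFPQ-2 and 37.1, 39.2 and 35.9 CPM in siSFPQ-3, against 40.5, 25.2 and 29.7 CPM in siCtrl, with a log2 fold change of 0.15 ± 0.23 (adjusted p = 0.632). For both, the groups overlapped. Without siCtrl replicate 1 miR-106b-3p was at 0.28 (adjusted p = 0.474) and miR-93-3p at 0.33 (adjusted p = 0.258).

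Of the chromosome X products, miR-106a-5p fell, whose count was not shown to be free of miR-17-5p and miR-20a-5p reads. So did the 2 counts that cannot be told apart from miR-18a-5p and miR-17-5p. miR-106a-5p (MIMAT0000103), which has the miR-17 seed, had 139, 128 and 129 CPM in siSFPQ-2 and 84.4, 86.6 and 96.4 CPM in siSFPQ-3, against 111, 209.9 and 197 CPM in siCtrl. Only the siSFPQ-3 libraries were below every siCtrl library. Its log2 fold change was -0.67 ± 0.21, 1.59-fold lower (adjusted p = 0.0112), and -0.94 without siCtrl replicate 1 (adjusted p = 0.0014). The call was lost without siCtrl replicate 2 (-0.49, adjusted p = 0.132) or replicate 3 (-0.59, adjusted p = 0.0685).

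The largest fall among the members was that of the count read as miR-18b-5p (MIMAT0001412), which cannot be told apart from miR-18a-5p. It stood at 3661, 3345 and 2977 CPM in siSFPQ-2 and 2917, 2491 and 2254 CPM in siSFPQ-3, against 3899, 8359 and 8295 CPM in siCtrl. Every knockdown library was below every siCtrl library, the low replicate 1 included, and for 34% of all tested miRNAs the groups likewise did not overlap. The log2 fold change was -1.23 ± 0.20, 2.35-fold lower (adjusted p = 1.95e-05), and -1.55 without siCtrl replicate 1 (adjusted p = 6.12e-07). It kept an adjusted p of 0.00119 or less with any 1 siCtrl library left out.

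The count read as miR-20b-5p (MIMAT0001413), shared with miR-17-5p, stood at 5827, 6201.5 and 4099 CPM in siSFPQ-2 and 3919, 4466.5 and 3073 CPM in siSFPQ-3, against 6090.2, 9437 and 8416 CPM in siCtrl. All but 1 of the 6 knockdown libraries were below every siCtrl library. The log2 fold change was -0.82 ± 0.21, 1.76-fold lower (adjusted p = 0.00287), and -1.02 without siCtrl replicate 1 (adjusted p = 0.00157). With any 1 siCtrl library left out its adjusted p was at most 0.0349.

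**Figure D3:**
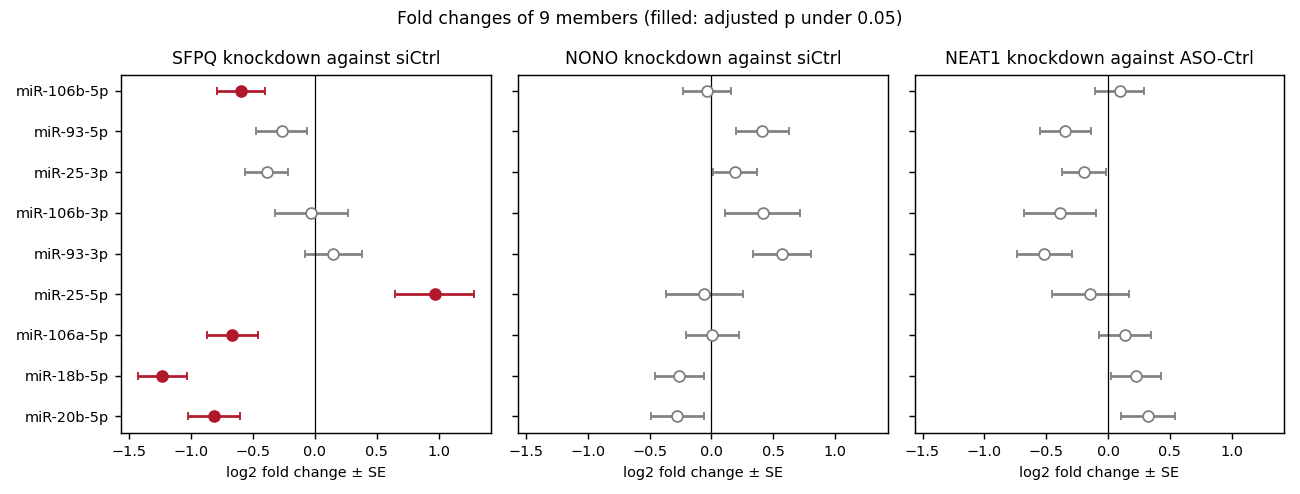
Log2 fold changes (x axis, with SE bars) of the 9 tested members in each pooled knockdown against its control, filled red where the adjusted p was under 0.05. The SFPQ panel holds 5 filled points, from -1.23 for miR-18b-5p to 0.97 for miR-25-5p, and the NONO and NEAT1 panels hold none.

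The direction of several of these values depended on how libraries were scaled. Against TMM, scaling by library totals moved the median log2 fold change of all tested miRNAs in SFPQ knockdown to 0.47, and scaling by spike-in totals to 0.21. The split of all calls moved with it, being 160 higher and 142 lower with TMM, 252 higher and 67 lower with library totals, and 182 higher and 90 lower with spike-in totals. miR-18b-5p fell (-0.80 with library totals and -1.08 with spike-in totals) and miR-25-5p rose (1.45 and 1.16) under every scaling tried. miR-20b-5p kept its call with spike-in totals (-0.64, adjusted p = 0.0418) and lost it with library totals (-0.38, adjusted p = 0.197). miR-106b-5p (-0.17 and -0.44) and miR-106a-5p (-0.24 and -0.51) lost the call under both. miR-25-3p was at 0.07 and -0.23, and miR-93-5p at 0.18 and -0.10. miR-93-3p passed with library totals (0.62, adjusted p = 0.0288) but not with spike-in totals (0.33). Relative to the median of all tested miRNAs under the same scaling, miR-106b-5p lay 0.64 below it under both, and miR-25-5p 0.97 and 0.95 above it. A change of scaling shifts all miRNAs of a comparison nearly alike, so such relative values move little whatever the scaling and could not test the calls.

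**Figure D4:**
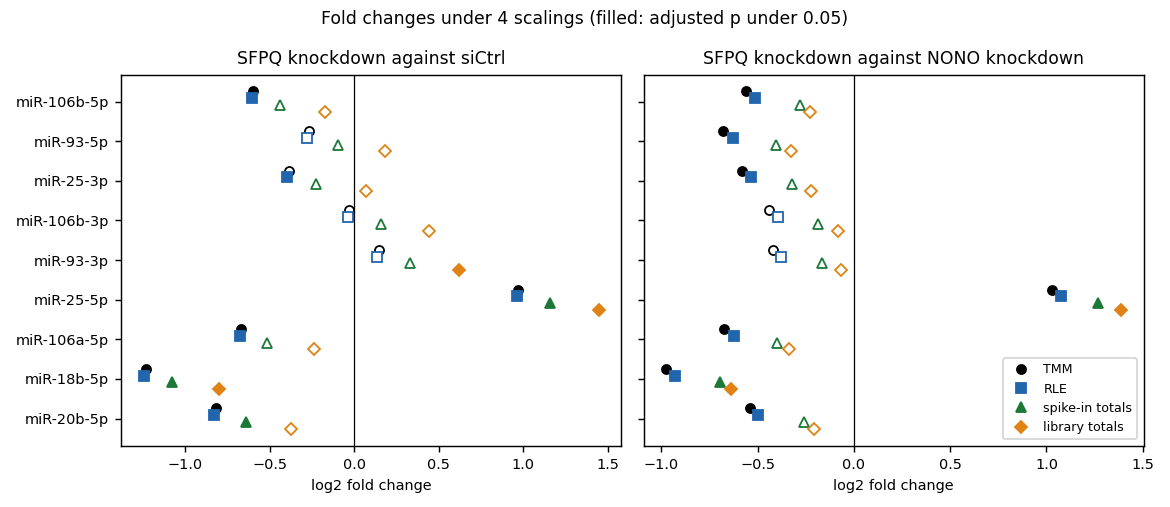
Log2 fold changes of the 9 tested members under 4 scalings of the same counts, for SFPQ knockdown against siCtrl (left) and against NONO knockdown (right), filled where the adjusted p was under 0.05. With library totals every member's value lies to the right of its TMM value, and miR-25-5p and miR-18b-5p are filled under all 4 scalings in both panels.

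Between the siRNAs against SFPQ, the difference passed the test for no member. Set against siCtrl, siSFPQ-3 had 5 of 9 members called, 4 lower and 1 higher, where 44.4% of all tested miRNAs were called, and 3 without siCtrl replicate 3. siSFPQ-2 had 1 called, miR-18b-5p (-1.04 ± 0.24, adjusted p = 0.00131), where 38.7% of all were called and 15.5% were lower. Without siCtrl replicate 1 that count was 5, and without siSFPQ-2 replicate 1 it was 2. In siSFPQ-2, miR-25-5p was at 0.81 ± 0.36 (adjusted p = 0.0745) and miR-106b-5p at -0.53 ± 0.23 (adjusted p = 0.0702). In siSFPQ-3, miR-25-5p was at 1.13 ± 0.36 (adjusted p = 0.0132) and miR-106b-5p at -0.66 ± 0.23 (adjusted p = 0.0228). Between siSFPQ-3 and siSFPQ-2 themselves, 0 of 9 members passed in edgeR and 0 in DESeq2, with 1 at an unadjusted p under 0.05 (miR-106a-5p, -0.57 ± 0.25), where 0.639% of all tested miRNAs were called.

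NONO knockdown, with 6 libraries against the same siCtrl libraries, changed no member past the threshold. In edgeR 0 of 9 were called and in DESeq2 0, with 1 at an unadjusted p under 0.05, beside 1.6% called over all tested miRNAs (10 of 626). That member was the passenger product miR-93-3p. It had 42.3, 48.7 and 50.7 CPM in siNONO-3 and 40.6, 46.7 and 55.2 CPM in siNONO-4, against 40.5, 25.2 and 29.7 CPM in siCtrl. All 6 knockdown libraries were above every siCtrl library, as groups did not overlap for 5.91% of all tested miRNAs, with a log2 fold change of 0.57 ± 0.23 (adjusted p = 0.299), and 0.73 without siCtrl replicate 1 (adjusted p = 0.0822).

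The guides of chromosome 7 were spread widely in NONO knockdown. miR-93-5p had 5938, 8492 and 9723 CPM in siNONO-3 and 5166, 9121 and 8725 CPM in siNONO-4, with a log2 fold change of 0.41 ± 0.21 (adjusted p = 0.480). miR-25-3p had 6037, 8338 and 8477 CPM in siNONO-3 and 5480.4, 8248 and 9003 CPM in siNONO-4, with a log2 fold change of 0.19 ± 0.18 (adjusted p = 0.753). In both groups the library of replicate 1 was the low one for both miRNAs. miR-106b-5p was at -0.04 ± 0.20 and miR-106b-3p at 0.41 ± 0.30, and miR-25-5p, at 24.2, 19.9 and 36.5 CPM in siNONO-3 and 14.8, 31.5 and 32.2 CPM in siNONO-4, at -0.06 ± 0.31. The chromosome X products were at 0.01 ± 0.21 for miR-106a-5p, -0.26 ± 0.20 for miR-18b-5p and -0.27 ± 0.21 for miR-20b-5p. With siCtrl replicate 1 left out, the guides of chromosome 7 were at 0.41 (miR-93-5p), 0.22 (miR-25-3p) and -0.35 (miR-106b-5p), and the passenger products miR-25-5p at 0.34 and miR-106b-3p at 0.69. The chromosome X products were then at -0.29 (miR-106a-5p), -0.60 (miR-18b-5p) and -0.50 (miR-20b-5p), and 0 of 9 members passed. Taken alone, siNONO-3 and siNONO-4 each had 0 of 9 members called in edgeR and in DESeq2, with 1 each at an unadjusted p under 0.05 (miR-93-3p), where 2.56% (1.92% higher) and 0.958% of all tested miRNAs were called.

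NEAT1 knockdown, with 6 libraries against the 3 of ASO-Ctrl, also changed no member past the threshold. In edgeR 0 of 9 members and 0 of 626 miRNAs (0%) were called, and in DESeq2 0 of either, with 1 member and 19 of all tested miRNAs at an unadjusted p under 0.05. The member was again miR-93-3p, at 33.6, 45.7 and 67.8 CPM in ASO-NEAT1-1047 and 24.02, 34.3 and 33.1 CPM in ASO-NEAT1-1473, against 43.1, 60.05 and 62.8 CPM in ASO-Ctrl. The groups overlapped, and its log2 fold change was -0.51 ± 0.22 (adjusted p = 0.908). miR-106b-5p was at 0.10 ± 0.20, miR-93-5p at -0.35 ± 0.21, miR-25-3p at -0.19 ± 0.18, miR-106b-3p at -0.39 ± 0.29 and miR-25-5p at -0.14 ± 0.31. The chromosome X products were at 0.14 ± 0.21 for miR-106a-5p, 0.22 ± 0.20 for miR-18b-5p and 0.32 ± 0.22 for miR-20b-5p. The ASO-Ctrl and siCtrl groups, set against each other, differed for 0 of 9 members in edgeR and in DESeq2, with 1 at an unadjusted p under 0.05 (miR-93-3p, 0.80 ± 0.26, adjusted p = 0.465), where 0.479% of all tested miRNAs were called.

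Because SFPQ and NONO knockdown share their siCtrl libraries, they were compared directly, 6 libraries against 6, so that siCtrl dropped out. In this contrast 7 of 9 members passed, 1 higher and 6 lower in SFPQ knockdown, where 56.5% of all tested miRNAs were called, 29.7% higher and 26.8% lower. All 3 guides of the MCM7 intron were lower than in NONO knockdown. miR-106b-5p averaged 1655 ± 189 CPM in SFPQ knockdown and 2450.2 ± 431 CPM in NONO knockdown (SD, n = 6 each), a log2 difference of -0.56 ± 0.16 (adjusted p = 0.00487). miR-93-5p averaged 4913 ± 943 CPM in SFPQ knockdown and 7861 ± 1852.5 CPM in NONO knockdown, a log2 difference of -0.68 ± 0.17 (adjusted p = 0.00167). miR-25-3p averaged 5078 ± 799 CPM in SFPQ knockdown and 7597 ± 1459 CPM in NONO knockdown, a log2 difference of -0.58 ± 0.15 (adjusted p = 0.00159). For none of these guides were the groups fully apart: 4, 3 and 4 of the 6 SFPQ libraries, in the order given, were below every NONO library.

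Of the remaining members, 4 passed. miR-25-5p averaged 54.4 ± 14.7 CPM in SFPQ knockdown and 26.5 ± 8.29 CPM in NONO knockdown, a log2 difference of 1.03 ± 0.25, 2.04-fold higher (adjusted p = 0.00126). miR-18b-5p averaged 2941 ± 521 CPM in SFPQ knockdown and 5783 ± 1252 CPM in NONO knockdown, and its groups did not overlap, as for 35.5% of all tested miRNAs. Its log2 difference was -0.97 ± 0.17 (adjusted p = 2.96e-05). miR-106a-5p differed by -0.67 ± 0.17 (adjusted p = 0.00193) and miR-20b-5p by -0.54 ± 0.18 (adjusted p = 0.0113). The call of miR-20b-5p was lost without siNONO-3 replicate 1 (-0.39), siNONO-4 replicate 1 (-0.43) or siSFPQ-2 replicate 3 (-0.41), and that of miR-93-3p and miR-106b-3p was gained without siNONO-4 replicate 1 (-0.46 and -0.57). miR-93-3p (-0.42 ± 0.18, adjusted p = 0.0534) and miR-106b-3p (-0.44 ± 0.24, adjusted p = 0.122) did not pass. With the replicate number as a block miR-93-3p passed (-0.42, adjusted p = 0.0370). With library totals or spike-in totals, 2 of the 7 kept the call, miR-25-5p (1.39 and 1.27) and miR-18b-5p (-0.64 and -0.69).

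The ratio of the arms of a hairpin does not depend on the scaling, since both counts come from the same library. It was tested with limma as log2 of 5p over 3p for the 168 hairpins with both arms among the tested miRNAs. The miR-93 hairpin gave over 99% 5p product in every group, the miR-106b hairpin 90.4% to 94.7% as group means, and the miR-25 hairpin almost wholly 3p product. The share of 5p among the miR-25 products averaged 0.928% ± 0.126 in siSFPQ-2 and 1.17% ± 0.153 in siSFPQ-3, against 0.400% ± 0.144 in siCtrl (SD, n = 3 each). It was 0.355% in siNONO-3 and 0.335% in siNONO-4. It was 0.288% in ASO-NEAT1-1047 and 0.287% in ASO-NEAT1-1473, against 0.278% in ASO-Ctrl.

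In SFPQ knockdown the miR-25 hairpin thus shifted towards its 5p arm. The log2 ratios were -6.94, -6.68 and -6.56 in siSFPQ-2 and -6.32, -6.61 and -6.25 in siSFPQ-3, against -7.44, -8.14 and -8.37 in siCtrl. All 6 knockdown libraries were above every siCtrl library, the outlying replicate 1 included. How many of the 168 hairpins were separated in this way was not counted. The difference was 1.42 ± 0.21, 2.68-fold (limma adjusted p = 9.74e-05), where 23.8% of all 168 hairpins were called and 7.14% in this direction. An exact two-sided permutation test gave an unadjusted p = 0.0238, the smallest that 6 against 3 libraries allow, which full separation always gives. The difference was 1.23 to 1.70 with any 1 library left out and passed each time. It rests on few reads of the 5p arm, whose count was 106 to 300 in the siSFPQ libraries and 33 to 113 in the siCtrl libraries.

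The shift was larger than in NONO knockdown by the direct test. The miR-25 log2 ratio averaged -6.56 ± 0.253 in SFPQ knockdown and -8.17 ± 0.331 in NONO knockdown (SD, n = 6 each). The difference was 1.61 ± 0.17, 3.05-fold (limma adjusted p = 1.23e-06; exact two-sided permutation p = 0.00216, the smallest that 6 against 6 allow), where 32.7% of hairpins were called. This contrast of the ratio was added after the data had been seen. For NONO knockdown against siCtrl the miR-25 ratio differed by -0.19 ± 0.21 (adjusted p = 0.726; 0.09 without siCtrl replicate 1), and for NEAT1 knockdown against ASO-Ctrl by 0.04 ± 0.21 (adjusted p = 0.944). In these 2 comparisons limma called 0 of the 168 hairpins (0%), with 17 and 6 at an unadjusted p under 0.05.

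The other hairpins of the intron did not pass. The miR-93 ratio differed by -0.44 ± 0.20 in SFPQ knockdown (adjusted p = 0.130), by -0.21 ± 0.20 in NONO knockdown and by 0.21 ± 0.20 in NEAT1 knockdown. The miR-106b ratio differed by -0.54 ± 0.50 in SFPQ knockdown (adjusted p = 0.455), by -0.39 ± 0.50 in NONO knockdown and by 0.47 ± 0.50 in NEAT1 knockdown. The spread of the miR-106b ratio among libraries of 1 group was up to 4.03-fold in siNONO-4 and 3.51-fold in siCtrl. Its difference without siCtrl replicate 1 was -1.14 in SFPQ knockdown (adjusted p = 0.102) and -0.99 in NONO knockdown (adjusted p = 0.275). With any 1 library left out it ranged from -1.14 to -0.23 in SFPQ knockdown, from -0.99 to -0.08 in NONO knockdown and from 0.22 to 0.87 in NEAT1 knockdown. The miR-93 ratio was at -0.56 in SFPQ knockdown and -0.33 in NONO knockdown without siCtrl replicate 1.

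**Figure D5:**
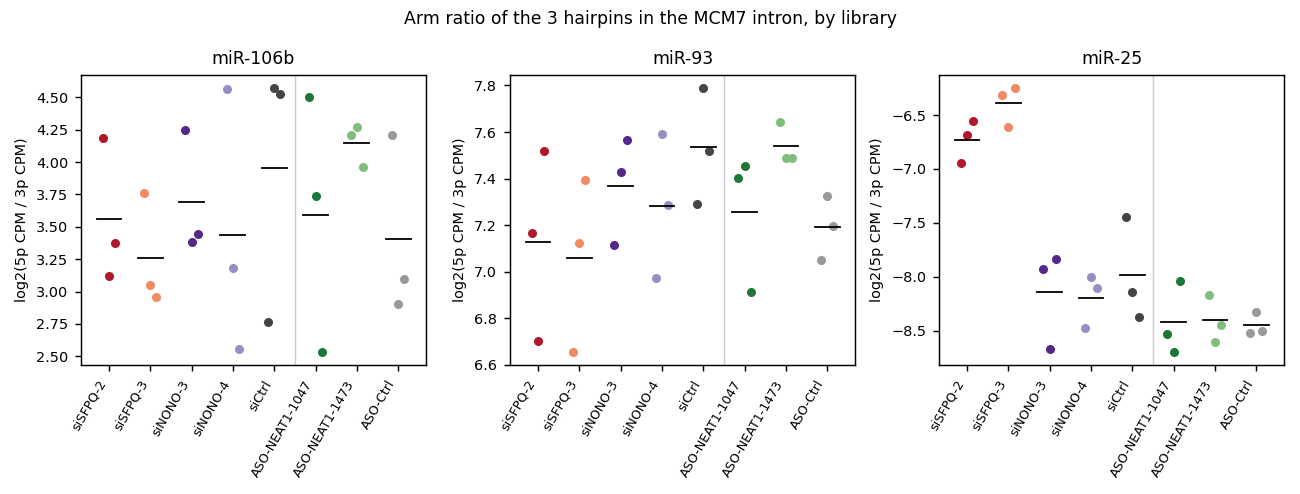
Log2 ratio of the 5p to the 3p product (y axis) of the 3 hairpins in the MCM7 intron, by library (points) and group. For miR-25 the 6 siSFPQ points lie between -6.94 and -6.25, above every other library, while the miR-106b points of 1 group spread over up to 4.03-fold.

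The shares of the 6 products of the MCM7 intron in the cluster's counts were also compared, with no test. Group means of the share of miR-25-3p stayed between 40.9% and 43.4%, those of miR-93-5p between 38.3% and 43.0% and those of miR-106b-5p between 13.4% and 18.2%. miR-25-5p held 0.407% of the cluster's counts in siSFPQ-2 and 0.499% in siSFPQ-3, against 0.178% in siCtrl. miR-93-3p held 0.283% in siSFPQ-2 and 0.315% in siSFPQ-3, against 0.208% in siCtrl, and the siSFPQ-3 libraries (0.259% to 0.363%) lay above those of siCtrl (0.166% to 0.257%). miR-106b-3p held 1.25% in siSFPQ-2 and 1.37% in siSFPQ-3, against 1.04% in siCtrl, and the ranges overlapped.

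The products of the miR-17~92 hairpins on chromosome 13, taken as a list of 12 that were all tested, also moved down with SFPQ knockdown. Of these, 8 fell and 0 rose (median log2 fold change -0.69, beside 0.02 over all tested miRNAs), where 22.7% of all tested miRNAs fell. The abundant miR-20a-5p was at -0.69 ± 0.16 (adjusted p = 0.00089), miR-17-3p at -0.68 ± 0.19 (adjusted p = 0.00562) and miR-20a-3p at -0.86 ± 0.19 (adjusted p = 0.000737). The other 5 that fell were miR-17-5p (-0.81), miR-18a-5p (-1.23), miR-19a-3p (-0.77), miR-19b-3p (-0.77) and miR-19b-1-5p (-0.54). The counts of miR-17-5p and miR-18a-5p cannot be told apart from those read as miR-20b-5p and miR-18b-5p. Their falls are therefore the ones already given among the members. The count of miR-19b-3p was 97.6% to 98.6% of that of miR-19a-3p, within 10% in 24 of 24 libraries, so these 2 of the 8 are not separate falls. miR-92a-3p, the paralog of miR-25-3p, was at -0.33 ± 0.30 (adjusted p = 0.393). Mature miR-19b-3p and miR-92a-3p can also come from the chromosome X hairpins miR-19b-2 and miR-92a-2. Their counts were not split by hairpin, so they are not those of chromosome 13 alone. With library totals 1 of the 12 fell, and with spike-in totals 4. Against NONO knockdown, 9 were lower and 1, miR-92a-1-5p (0.51 ± 0.21, adjusted p = 0.0459), was higher in SFPQ knockdown. In that contrast 26.8% of all tested miRNAs were lower and 29.7% higher. In NONO and NEAT1 knockdown against their controls 0 of 12 passed in edgeR, with 1 (miR-17-3p) and 0 at an unadjusted p under 0.05.

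How much the rest of the chromosome X cluster gave could not be told. Its possible products miR-19b-3p and miR-92a-3p averaged 41910 and 18915 CPM in siCtrl, but were not split by hairpin. The 6 other products listed leave these out. Of the products listed, 2 were tested, and miR-20b-3p, miR-92a-2-5p and miR-363-5p had no count in any library. The count of miR-18b-3p was 82.2% to 90.8% of that of miR-18a-3p in the 24 libraries (median 88.0%), so a contribution of miR-18a-3p reads was not separated. In SFPQ knockdown miR-18b-3p was at -0.43 ± 0.33 (adjusted p = 0.303) and miR-19b-2-5p at 0.91 ± 0.39 (adjusted p = 0.0578). Against NONO knockdown both passed, miR-18b-3p at -0.73 ± 0.27 (adjusted p = 0.0275) and miR-19b-2-5p at 0.81 ± 0.29 (adjusted p = 0.0217), where 56.5% of all tested miRNAs passed. miR-19b-2-5p was measured at 1.70 to 11.2 CPM, close to the lower limit of what was tested.

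Within the seed families, miR-106b-5p, miR-93-5p and miR-106a-5p made up a minority of the miR-17 seed. The sum of miR-17-5p, miR-20a-5p, miR-93-5p, miR-106a-5p and miR-106b-5p averaged 36311 ± 2464 CPM in siSFPQ-2 and 30323 ± 658 CPM in siSFPQ-3, against 51981 ± 13412 CPM in siCtrl (SD, n = 3 each). Here miR-20b-5p was left out because it shares reads. The members' share of this sum was 18.0% ± 2.29 in siSFPQ-2, 22.5% ± 3.04 in siSFPQ-3 and 17.2% ± 4.27 in siCtrl, and the ranges overlapped. In the other groups the mean share was 15.9% to 21.9%. miR-25-3p held 21.7% ± 2.95 of the AUUGCAC seed counts in siSFPQ-2, 24.5% ± 1.71 in siSFPQ-3 and 26.3% ± 7.93 in siCtrl, the rest being mostly miR-92a-3p.

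Across the 24 libraries, the miRNAs most like miR-106b-5p and miR-106a-5p were other ones than those most like miR-93-5p and miR-25-3p. Likeness was measured as Pearson's r of log2 CPM over 395 miRNAs with a mean of at least 10 CPM, and is a description, since the libraries share their groups and scaling. miR-106b-5p was most like miR-20a-5p, miR-18a-5p and miR-18b-5p (r = 0.94 each), all of other clusters. The counts of miR-18a-5p and miR-18b-5p cannot be told apart, so they are not separate likenesses, here or for miR-106a-5p. miR-93-5p and miR-25-3p were most like each other (r = 0.94), followed by miR-769-5p (0.91 and 0.93) and miR-107 (0.89 and 0.92). miR-106a-5p was most like miR-106b-5p, miR-18a-5p and miR-18b-5p (r = 0.93 each). With each library expressed as its deviation from its group mean, r was still 0.90 between miR-93-5p and miR-25-3p and 0.89 between miR-106b-5p and miR-20a-5p, so libraries of 1 group varied along the same lines.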

How the data were processed

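Small RNA was profiled in 24 SBC-3 libraries, placed in 8 groups by their titles. The labels' protocols describe QIAseq miRNA libraries from 100 ng of total RNA with spike-ins. The authors deposited a count for each miRNA locus and spike-in, obtained with featureCounts 2.0.3 per the file headers. Other tools in the submitters' processing notes are DESeq2 1.38.1, Subread 2.0.3, UMI-tools 1.1.1, Bowtie 1.3.0 and Trimmomatic 0.39, with the build hg38. The collapse of reads by molecular identifier and the treatment of reads with several alignments are not given in the sources used, so floors cover counting error only.

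Each table held 2883 loci of 2652 mature miRNAs and 52 spike-ins. Of the miRNAs, 169 had more than 1 locus, and the locus with the largest total was kept. Names came from RefSeq GRCh38.p14 by position (tolerance 3 bases) and matched 2364 miRNAs. The filter filterByExpr (minimum count 10) left 626 miRNAs with 99.97% of all counts. edgeR 4.0.16 (R 4.3.3) fitted 1 quasi-likelihood model with a term per group and TMM factors to all 24 libraries. It had 16 residual degrees of freedom and a common coefficient of variation of 0.25, and p-values were adjusted over the 626 by Benjamini-Hochberg with a threshold of 0.05. SE was derived from the log2 fold change and its F value. Arm ratios used limma 3.58.1 with trend (prior count 2) and adjustment over 168 hairpins. The scripts were tested on simulated data. Alternatives were DESeq2 1.42.0, RLE, library-total and spike-in scaling, other filters, a mean over loci, a fit of only the groups compared, a replicate block, each library left out and, for arm ratios, an exact permutation test. The named miRNAs are all 10 members, their paralogs, the related list, marker miRNAs and the 3 most alike miRNAs of each separable guide. The members and lists were chosen with earlier results of these data known.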

Additional observations from a re-analysis of the deposited data

Results flagged for a closer look

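These results were singled out because SFPQ and NONO knockdown, set against each other in 1 contrast of 6 libraries against 6, differed past an adjusted p of 0.05 in edgeR. The log2 differences (SFPQ minus NONO knockdown) were -0.56 for miR-106b-5p, -0.68 for miR-93-5p, -0.58 for miR-25-3p, 1.03 for miR-25-5p, -0.67 for miR-106a-5p, -0.97 for miR-18b-5p and -0.54 for miR-20b-5p. The 5p to 3p ratio of the miR-25 hairpin (MIR25) differed by 1.61 (log2, limma). Over all tested miRNAs 56.5% passed in the same contrast, and of all hairpins 32.7%. The values of miR-18b-5p and miR-20b-5p are those of reads shared with miR-18a-5p and miR-17-5p.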

How the results depend on the processing

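The miR-25 arm ratio in SFPQ knockdown and against NONO knockdown kept its direction and call under every alternative limma run (prior count 0.5, replicate block, each library left out). The exact permutation p was not adjusted and was the smallest the design allows in both, so it could not test the call. Counts of members called were 5 in SFPQ knockdown (3 with library totals, spike-in totals or only the groups compared; 2 to 6 with 1 library left out), 7 against NONO knockdown (2 with library or spike-in totals; 6 to 8), 5 in siSFPQ-3 (3 with library totals, spike-in totals or only the groups compared; 3 to 5) and 1 in siSFPQ-2 (2 with library totals, 4 with the replicate block; 1 to 5). The related list of miR-17~92 and chromosome X products had 8 called in SFPQ knockdown (2 with library totals, 5 with spike-in totals or only the groups compared; 4 to 9, with 4 without siCtrl replicate 2), 12 against NONO knockdown (5 with library or spike-in totals, 6 with a mean of at least 10 CPM; 6 to 11, with 6 without siNONO-3 replicate 2 or siSFPQ-3 replicate 1 and 7 without siNONO-4 replicate 2) and 0 in NONO knockdown (1 with the replicate block). Over all miRNAs, NONO knockdown had 10 called (DESeq2 20, library totals 21, no filter 19, replicate block 24, only the groups compared 3, spike-in totals 6; 6 without siCtrl replicate 1 to 16 without siNONO-4 replicate 1), NEAT1 knockdown 0 throughout, and SFPQ knockdown 302 (209 with a mean of at least 10 CPM).

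Signs turned for values that had not passed. In SFPQ knockdown, library totals gave 0.44 for miR-106b-3p, 0.07 for miR-25-3p and 0.18 for miR-93-5p, and spike-in totals 0.16 for miR-106b-3p. In siSFPQ-2, library totals gave 0.30 (miR-106b-3p), 0.01 (miR-25-3p) and 0.04 (miR-93-5p), and miR-93-3p was at -0.01 in DESeq2 and RLE and -0.05 with spike-in totals. In siSFPQ-3, miR-106b-3p was at -0.05 with the replicate block, miR-25-3p at 0.13 and 0.05 and miR-93-5p at 0.32 and 0.26 with library and spike-in totals. In NONO knockdown, miR-106a-5p was at -0.05 (DESeq2, RLE), -0.12 (mean of at least 10 CPM, spike-in totals), -0.00 (no filter) and -0.01 (replicate block), and library totals gave 0.06 for miR-106b-5p and 0.06 for miR-25-5p. With 1 library left out the ranges were -0.29 to 0.14 (miR-106a-5p), -0.35 to 0.09 (miR-106b-5p) and -0.32 to 0.34 (miR-25-5p) in NONO knockdown, -0.01 to 0.29 (miR-106b-5p) in NEAT1 knockdown, -0.20 to 0.28 (miR-106b-3p) in SFPQ knockdown, -0.33 to 0.15 (miR-106b-3p) and -0.21 to 0.19 (miR-93-3p) in siSFPQ-2, and -0.07 to 0.41 (miR-106b-3p) and -0.29 to 0.02 (miR-93-5p) in siSFPQ-3. The arm ratio ranged from -0.06 to 0.11 (MIR25, NEAT1 knockdown), -0.38 to 0.09 (MIR25, NONO knockdown) and -0.37 to 0.13 (MIR106B, SFPQ against NONO knockdown). The cause was not tested.

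Replicate numbers were not taken to pair the libraries, as the sample titles state no pairing. Even so, 23 of 39 same-number correlations of deviations exceeded 0.1 (-0.288 to 0.619). Their median was 0.158, against -0.109 for different numbers, 23 of 39 best matches had the same number, and replicate 1 was lowest for miR-93-5p and miR-25-3p in 7 of 8 groups, a hint from the data, not the design. The replicate block brought miR-25-3p past the threshold in SFPQ knockdown (-0.42, adjusted p = 0.0123) and miR-93-3p against NONO knockdown (-0.42, adjusted p = 0.0370). Fits that leave out a library rest on the spread of the other groups, and differences in miR-363-3p were not detectable at this depth.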
